A study of Mus musculus with 9 samples.

Results

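The members described here are 10 genes for subunits of voltage-gated calcium channels: *Cacna1c*, *Cacna1d*, *Cacna1s*, *Cacna1g*, *Cacna1h*, *Cacnb2*, *Cacna2d1*, *Cacna2d2*, *Cacng6* and *Cacng7*. They were picked by name from the 52636 genes of the deposited count table, with earlier results of the same libraries known. RNA was taken from the left ventricle of 16-week-old C57BL6J mice and sequenced as 9 libraries, of which libraries 1 to 5 are labelled VDAC2 WT and libraries 6 to 9 are labelled VDAC2 KO. The KO carries floxed *Vdac2* alleles and Cre under the αMHC promoter, which is active in cardiomyocytes, so other cells of the ventricle keep the gene. The WT were littermates with flox or Cre alone. The labels do not say which of these a library holds, nor do they say that each library is a separate mouse, so the p-values measure only the spread between libraries, which may be technical.

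*Vdac2*, the deleted gene, did not follow the labels. Its level, in CPM (counts relative to the library total after TMM scaling), was 20.1, 21.3, 20.5 and 19.1 in libraries 1, 5, 7 and 9, and 366, 365, 384 and 421 in libraries 2, 4, 6 and 8. Library 3 was at 58.4. Libraries 1, 3 and 5 are labelled WT and have low *Vdac2*, and libraries 6 and 8 are labelled KO and have high *Vdac2*. Thus 2 comparisons are given. The labels were tested as deposited. In addition, the members are described between libraries 1, 5, 7 and 9 ("low *Vdac2*", under 100 CPM) and libraries 2, 4, 6 and 8 ("high *Vdac2*", over 300 CPM), each set holding 2 libraries of either label. The closest libraries to the limits were library 5 at 21.3 CPM and library 4 at 365 CPM, and library 3, also under 100 CPM, was kept apart. No genotype is given to any library from its *Vdac2* level. The members were chosen with the differences between these sets in view, so these are descriptions without a test.

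Libraries held 27345052 to 44673988 counts, and 3 counts, taken as the lowest level shown, were 0.0692 to 0.114 CPM, which covers counting error only. The study states that a WT sample was left out for poor RNA quality but does not name it. All 9 libraries were kept here. Library 3 stood apart. Its TMM factor was 1.30 against 0.933 to 1.01 in the others, and its 7 cardiomyocyte markers summed to 51580 CPM against 127000 to 139200 at low *Vdac2* and 145100 to 159900 at high *Vdac2*. All libraries labelled WT were run on lane 1 and all labelled KO on lane 2, and the effects of lane and of label therefore cannot be told apart. Either *Vdac2* set holds 2 libraries of each lane.

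A voltage-gated calcium channel opens when the membrane is depolarised and lets calcium into the cell. The α1 subunit forms the pore and senses voltage. L-type pores (*Cacna1c*, *Cacna1d*, *Cacna1s*) open at strong depolarisation and are assembled with a β subunit (such as that of *Cacnb2*), which aids traffic to the membrane and gating, and an α2δ subunit (*Cacna2d1*, *Cacna2d2*), which raises surface density. T-type pores (*Cacna1g*, *Cacna1h*) open at weaker depolarisation and can work without these partners. In ventricular myocytes the L-type current of the *Cacna1c* channel triggers calcium release from the sarcoplasmic reticulum, while T-type current is known from the sinoatrial node, the conduction system and the fetal ventricle. γ subunits are membrane proteins that modify gating, and those of the *Cacng7* class also associate with glutamate receptors in the brain.

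The members lie on 9 chromosomes. *Cacng7* (ENSMUSG00000069806) and *Cacng6* (ENSMUSG00000078815) both lie on the plus strand of chromosome 7, at 3332955 to 3368221 and 3424195 to 3435667 of GRCm38, with 55974 bases between them that hold a further γ gene, *Cacng8*. *Cacna1d* (ENSMUSG00000015968, chromosome 14, 30039939 to 30491455, minus strand) shares its chromosome with *Vdac2*, 8194060 bases away. *Cacna1s* (ENSMUSG00000026407) is on chromosome 1 at 136052750 to 136119822, *Cacna1h* (ENSMUSG00000024112) on chromosome 17 at 25374285 to 25433783, *Cacna1c* (ENSMUSG00000051331) on chromosome 6 at 118587240 to 119196418 and *Cacna1g* (ENSMUSG00000020866) on chromosome 11 at 94408391 to 94474198. *Cacnb2* (ENSMUSG00000057914) is on chromosome 2 at 14603088 to 14987908, *Cacna2d1* (ENSMUSG00000040118) on chromosome 5 at 15934691 to 16374511 and *Cacna2d2* (ENSMUSG00000010066) on chromosome 9 at 107399612 to 107529343. Exons of *Cacna1d*, *Cacna1s*, *Cacna1h*, *Cacnb2* and *Cacna2d2* overlap genes on the opposite strand by at most 1309 bases, and each of those genes had at most 39 counts in all libraries together. No member overlaps a gene on its own strand.

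Promoter windows of 300 bases, 250 before to 50 after the start of transcription, were at hand for 8 members (12 windows, RefSeq, GRCm38.p6). Shown are *Cacna1s* and *Cacna1d*, 2 of the members whose libraries did not overlap between the *Vdac2* sets, and *Cacng6* and *Cacng7*, near each other on chromosome 7, which differed in level from each other at high *Vdac2*. All are written 5′ to 3′ on the strand of the gene, with capitals for matches, on either strand, to a GC box (GGGCGG), an MCAT element (CATTCC) or a CRE (TGACGTCA).
Cacna1s promoter, chr1:136052561-136052860, plus strand: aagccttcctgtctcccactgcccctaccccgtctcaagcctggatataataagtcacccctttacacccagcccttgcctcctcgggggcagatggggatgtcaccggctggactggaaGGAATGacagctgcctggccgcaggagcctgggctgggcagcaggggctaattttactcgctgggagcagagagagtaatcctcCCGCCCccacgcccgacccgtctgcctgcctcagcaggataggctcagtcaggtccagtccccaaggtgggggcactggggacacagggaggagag
Cacna1d promoter, the most upstream start, chr14:30491107-30491406, minus strand: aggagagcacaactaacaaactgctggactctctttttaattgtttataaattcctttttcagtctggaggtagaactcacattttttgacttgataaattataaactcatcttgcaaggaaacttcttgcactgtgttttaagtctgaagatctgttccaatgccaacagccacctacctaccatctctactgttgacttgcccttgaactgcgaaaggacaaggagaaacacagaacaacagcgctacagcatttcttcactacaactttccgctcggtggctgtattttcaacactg
Cacng6 promoter, chr7:3424412-3424711, plus strand: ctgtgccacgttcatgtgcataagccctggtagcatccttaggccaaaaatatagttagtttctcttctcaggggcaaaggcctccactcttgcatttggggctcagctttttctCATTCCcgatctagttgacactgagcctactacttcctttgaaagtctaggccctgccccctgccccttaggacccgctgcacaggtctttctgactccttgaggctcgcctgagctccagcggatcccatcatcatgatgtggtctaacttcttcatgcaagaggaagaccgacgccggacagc
Cacng7 promoter, chr7:3332575-3332874, plus strand: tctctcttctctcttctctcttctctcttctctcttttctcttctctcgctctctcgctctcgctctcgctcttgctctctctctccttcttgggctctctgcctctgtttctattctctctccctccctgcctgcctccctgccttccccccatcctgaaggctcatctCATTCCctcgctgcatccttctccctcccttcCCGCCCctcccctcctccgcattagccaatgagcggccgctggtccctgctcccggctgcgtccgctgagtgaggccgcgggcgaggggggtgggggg

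*Cacna1s* and *Cacng7* held 1 MCAT match and 1 GC box each, *Cacng6* held 1 MCAT match and no GC box, and the *Cacna1d* window shown held none of the 3 motifs. A second *Cacna1d* window, at chr14:30353437-30353736, held 6 GC boxes and was 87.3% G and C. Of the 32851 mouse promoter windows of this length 14.7% held the MCAT letters, 35.7% the GC box and 1.79% the CRE. *Cacna2d2* also held 1 MCAT match. These are matches of letters only.

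All 10 members passed the expression filter in both comparisons. Between the *Vdac2* sets, *Cacna1h* was 2.05-fold higher at low *Vdac2* and *Cacna1s* 1.57-fold lower, each without overlap of the libraries. *Cacna1d* was 1.40-fold higher, also without overlap. The other 7 members overlapped. Thus 2 members were higher and 1 was lower in every library of the low set, against a background of 16251 genes of which 7.12% were higher and 4.95% lower without overlap (12.1% in either direction). With a change of at least 1.5-fold added, 1 member was higher and 1 lower, against 2.68% and 0.701% of all genes. The median log2 fold change was -0.04 over the members and 0.0013 over all genes, and the median absolute value was 0.27 and 0.127. As the members were chosen with this contrast known, nothing is read from these shares. In bulk tissue, fewer cells of a type and less RNA per cell cannot be told apart.

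**Figure D1:**
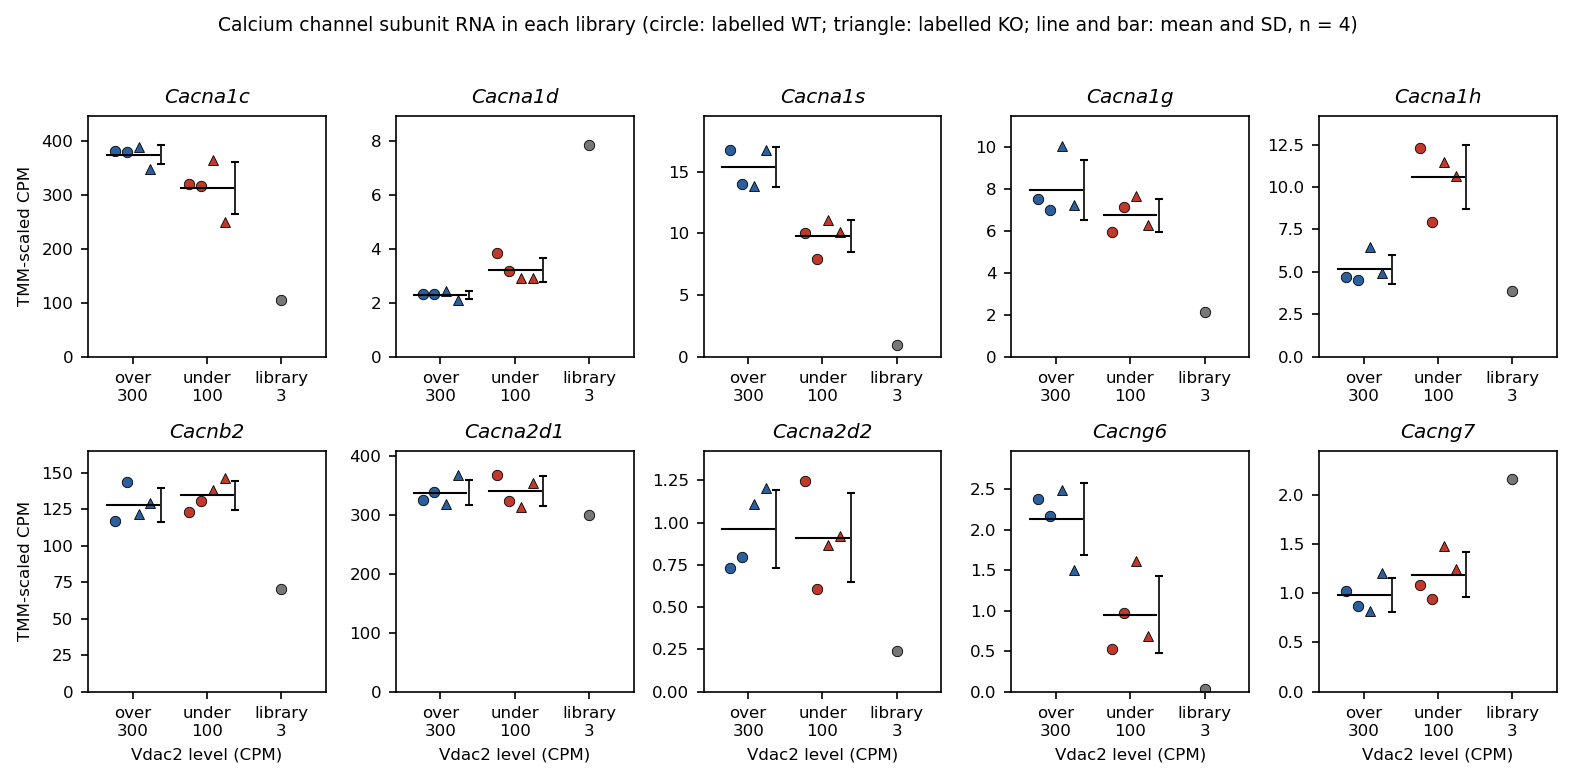
RNA level of each member in TMM-scaled CPM (linear axis from 0) in the libraries with *Vdac2* over 300 CPM (blue), under 100 CPM (red) and library 3 (grey). Circles are labelled WT, triangles labelled KO, and lines with bars are the mean and SD of 4 libraries; the sets do not overlap for *Cacna1h*, *Cacna1d* and *Cacna1s*, and library 3 is the lowest point for 8 members and the highest for *Cacna1d* and *Cacng7*.

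*Cacna1c*, the main L-type pore of ventricular myocytes, was at 319.8, 316, 365 and 249 CPM in libraries 1, 5, 7 and 9. In libraries 2, 4, 6 and 8 it was at 380.4, 379, 388 and 348 CPM. 3 of the 4 libraries with low *Vdac2* lay under all those with high *Vdac2*, and library 7 lay within them. The means were 312 ± 47.9 and 374 ± 17.5 CPM (SD, n = 4 each), with a log2 fold change of -0.26 (SE 0.101). Library 9 was the lowest of the 8, and within either label the difference was -0.26 (SE 0.0650 in labelled WT and 0.184 in labelled KO). Over both labels it was -0.17 without library 9.

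*Cacna1d*, the L-type pore that opens at more negative voltage and is known from the sinoatrial node and atria, was at 3.84, 3.17, 2.92 and 2.93 CPM at low *Vdac2* and at 2.34, 2.32, 2.44 and 2.09 CPM at high *Vdac2*. Every library of the low set was above every library of the high set, although by only 0.48 on the log2 scale (SE 0.142). The counts behind these levels were 61 to 127. Within labelled WT the difference was 0.59 (SE 0.198) and within labelled KO 0.37 (SE 0.218).

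*Cacna1s* encodes the L-type pore that is the voltage sensor of skeletal muscle. It was at 10, 7.955, 11.1 and 10.1 CPM at low *Vdac2* and at 16.8, 14.0, 13.9 and 16.7 CPM at high *Vdac2*. The highest library of the low set stood clear of the lowest of the high set, and the means were 9.78 ± 1.31 and 15.3 ± 1.61 CPM (SD, n = 4 each). The log2 fold change was -0.65 (SE 0.111), with -0.78 (SE 0.137) within labelled WT and -0.53 (SE 0.147) within labelled KO.

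Of 10 skeletal muscle markers 5 passed the filter. *Tnnt3*, *Mybpc2* and *Atp2a1* were higher at low *Vdac2* without overlap, as were 7.12% of all genes. *Tnni2* had a log2 fold change of 0.71 (SE 0.215) and *Myh1* one of -0.41 (SE 0.423), both with overlap. *Atp2a1*, the calcium pump of fast skeletal muscle, was at 1.54 ± 0.879 against 0.483 ± 0.157 CPM (SD, n = 4 each). The 10 markers summed to 26.4 to 31.0 CPM at low and 19.8 to 22.8 CPM at high *Vdac2*, of which *Mybpc2* alone made up 19.45 to 25.3 and 17.1 to 19.2 CPM. *Myod1* had at most 1 count in any library.

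*Cacna1g*, one of the T-type pores of the heart, was at 5.97, 7.13, 7.69 and 6.27 CPM at low *Vdac2* and at 7.53, 7.03, 10.1 and 7.23 CPM at high *Vdac2*. The sets overlapped, and the log2 fold change was -0.24 (SE 0.133). Library 6 was the highest of all, and without it the log2 fold change was -0.10.

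*Cacna1h*, another T-type pore, had the opposite sign. It was at 12.3, 7.955, 11.5 and 10.6 CPM at low *Vdac2* and at 4.71, 4.52, 6.44 and 4.91 CPM at high *Vdac2*. Each library of the low set exceeded all of the high set, with library 5 the lowest among the former and library 6 the highest among the latter. The means were 10.6 ± 1.89 and 5.15 ± 0.876 CPM (SD, n = 4 each) and the log2 fold change was 1.03 (SE 0.151). Within labelled WT it was 1.13 (SE 0.210) and within labelled KO 0.96 (SE 0.177).

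**Figure D2:**
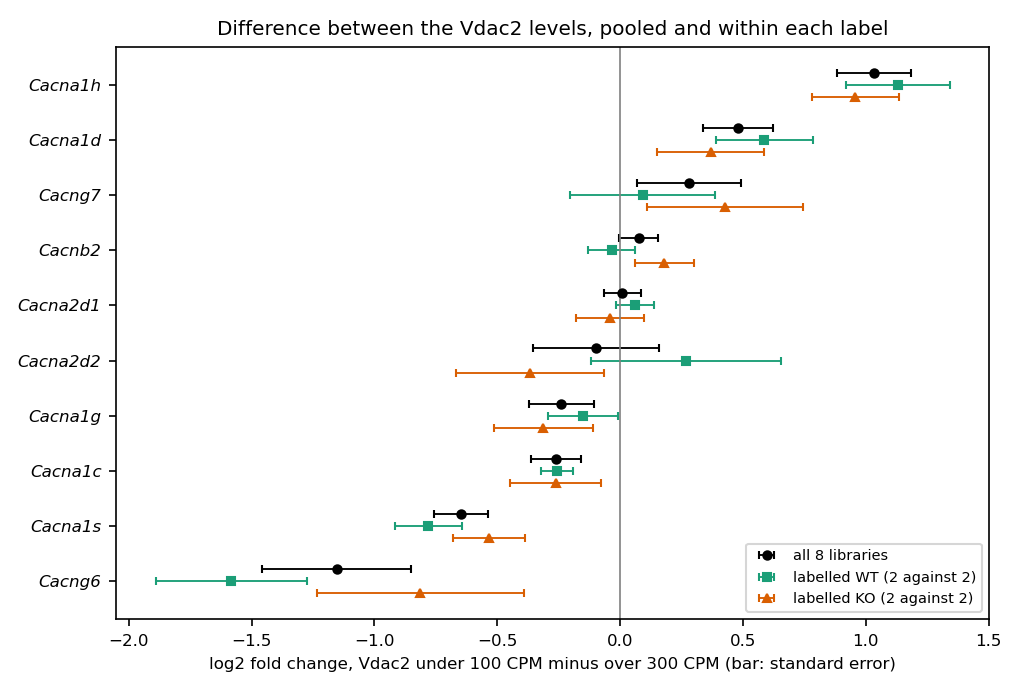
Log2 fold change of each member, *Vdac2* under 100 CPM minus over 300 CPM (horizontal axis, bars are standard errors of the edgeR fit), from all 8 libraries (black) and within the libraries labelled WT (green) and labelled KO (orange), 2 against 2. *Cacna1h*, *Cacna1d* and *Cacng7* lie right of 0 and *Cacng6*, *Cacna1s*, *Cacna1c* and *Cacna1g* left of 0 in all 3 fits, whereas *Cacnb2*, *Cacna2d1* and *Cacna2d2* change side between labels.

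With 2 libraries against 2 within a label, 5 members did not overlap in labelled WT (*Cacna1c*, *Cacna1d*, *Cacna1s*, *Cacna1h* and *Cacng6*), where 48.0% of all genes did not. In labelled KO these were 6 (*Cacna1d*, *Cacna1s*, *Cacna1h*, *Cacnb2*, *Cacna2d2* and *Cacng7*), where 37.9% of all genes did not overlap. Nothing is read from these counts either.

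The β and α2δ genes overlapped between the sets. *Cacnb2* was at 123, 131, 138 and 146 CPM at low *Vdac2* and at 117, 143, 122 and 129 CPM at high *Vdac2*, with overlap and a log2 fold change of 0.08 (SE 0.0799). It was 0.18 (SE 0.119) within labelled KO and -0.03 (SE 0.0951) within labelled WT. *Cacna2d1*, the main cardiac α2δ gene and the target of gabapentin, was at 369, 325, 314 and 355 CPM and at 327, 339, 319.6 and 368.5 CPM, so the means of 341 ± 25.6 and 338 ± 21.6 CPM (SD, n = 4 each) lay closer than the libraries of either set. Its log2 fold change was 0.01 (SE 0.0753), and leaving out each library in turn gave -0.03 to 0.05. *Cacna2d2*, an α2δ gene better known from the brain, was near 1 CPM with 20 to 42 counts in the libraries of these sets. It was at 1.25, 0.6096, 0.869 and 0.9225 CPM at low and at 0.731, 0.798, 1.11 and 1.205 CPM at high *Vdac2*, with a log2 fold change of -0.10 (SE 0.255) that was 0.27 within labelled WT and -0.37 within labelled KO.

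Both γ genes were low in level. *Cacng6*, a relative of the skeletal muscle γ gene, was at 0.525, 0.975, 1.61 and 0.692 CPM at low *Vdac2* and at 2.375, 2.17, 2.49 and 1.499 CPM at high *Vdac2*. Over the 8 libraries it had the widest difference of the members, a log2 fold change of -1.15 (SE 0.302). That of *Cacna1h* was wider within labelled KO, without library 6 (1.17 against -1.06) and without library 9 (1.03 against -1.01). However, library 7 with low *Vdac2* (61 counts) was above library 8 with high *Vdac2* (51 counts), so the sets overlapped. The difference was -1.58 (SE 0.307) within labelled WT and -0.81 (SE 0.421) within labelled KO. *Cacng7* was at 1.08, 0.945, 1.475 and 1.245 CPM at low and at 1.02, 0.874, 0.821 and 1.205 CPM at high *Vdac2*. These values overlapped, with a log2 fold change of 0.28 (SE 0.212) on 23 to 56 counts per library.

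Between the deposited labels, 0 of the 10 members passed edgeR's quasi-likelihood test, and 0 had an unadjusted p under 0.05. Of all 16322 genes tested, 9 passed (0.0551%) and 997 had an unadjusted p under 0.05. The adjusted p of the members ran from 0.679 to 0.963, and with DESeq2 and the other settings from 0.498 to 0.999. 8 members had a higher and 2 a lower mean log2 level in labelled KO, and the median log2 fold change was 0.26 against -0.0185 over all genes. Without library 3 the median was 0.07, with 7 members higher and 3 lower. *Cacna1s*, for example, was at 9.94 ± 6.09 CPM (SD, n = 5) in labelled WT and 12.9 ± 2.99 CPM (SD, n = 4) in labelled KO. The log2 fold change was 0.38 (SE 0.589), with an adjusted p of 0.817 by edgeR's quasi-likelihood test, and 0.08 (SE 0.241) without library 3. *Cacna1d* had the lowest adjusted p, with a log2 fold change of -0.59 (SE 0.370) from 3.90 ± 2.29 CPM in labelled WT to 2.59 ± 0.409 CPM in labelled KO. Without library 3 its log2 fold change was -0.18 (SE 0.194). A p over 0.05 does not show equal levels.

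Library 3, labelled WT with *Vdac2* at 58.4 CPM, lay outside the other 8 libraries for all 10 members. It was the lowest for 8 of them. The same share over all genes was not counted, and nothing is read from these counts. Library 3 also differed widely beyond the members. Between pairs of libraries, the chi-square per degree of freedom over the genes was 452.4 to 612.5 where library 3 was in the pair. It was at most 66.65 for pairs of the other libraries. *Cacna1s* was at 0.943 CPM (35 counts), 16.3-fold under the mean at high *Vdac2*. *Cacna1c* was at 105 CPM, 3.56-fold under that mean, and *Cacna1g* at 2.13 CPM, 3.74-fold under it. *Cacng6* had 1 count, below the floor of 3. *Cacna1h*, higher in the other libraries with low *Vdac2*, was at 3.85 CPM in library 3.

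By contrast, *Cacna1d* was at 7.84 CPM in library 3, 3.42-fold over the mean at high *Vdac2*, and *Cacng7* at 2.16 CPM, 2.20-fold over it. On unscaled totals *Cacna1h* ranked 6th of 9 from the top in library 3 and *Cacna2d1* ranked 1st, while the TMM-scaled values of both were the lowest. *Cacna2d1* was nearest the others, at 301 CPM. Of the sums over markers of other cells, that of smooth muscle markers in library 3 (535 CPM) lay within the other libraries. *Acta2* made up 402 CPM of it. However, *Tagln* at 84.2 CPM and *Cnn1* at 36.35 CPM lay above all the others, where they were at most 13.96 and 2.93 CPM. *Myh11* at 11.7 CPM lay below them. Other sums lay outside the other libraries. Those of macrophage (455.5 CPM), fibroblast (1445 CPM), skeletal muscle (36.8 CPM) and atrial markers (14.4 CPM) lay above them. Those of endothelial (363 CPM) and nerve markers (4.80 CPM) lay below, beside the low cardiomyocyte sum given for this library. Single genes differed from their sums. Among fibroblast markers *Col1a1* (690 CPM), *Pdgfra* and *Tcf21* lay above the other libraries, *Dcn* (454 CPM) below and *Lum* (144 CPM) within them. Among skeletal muscle markers *Mybpc2* and *Tnnt3* lay above the other libraries and *Atp2a1* (0.2695 CPM) below. The part of these cells in the values of library 3 was not tested.

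Levels of different genes are set side by side per kilobase of exon (the union of annotated exons), since long genes collect more reads. At high *Vdac2*, *Cacna2d1* was highest at 27.3 CPM per kb, followed by *Cacna1c* at 17.6 and *Cacnb2* at 9.66. Then came *Cacna1s* at 2.34, *Cacng6* at 1.08, *Cacna1g* at 0.786, *Cacna1h* at 0.527, *Cacng7* at 0.402, *Cacna1d* at 0.182 and *Cacna2d2* at 0.121 CPM per kb. The ranges of neighbours in this order overlapped only for *Cacng6* with *Cacna1g* and for *Cacna1h* with *Cacng7*. So the 3 highest members were the pore, β and α2δ genes of the cardiac L-type channel.

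At low *Vdac2* these 3 stayed in the same order, with *Cacna2d1* at 27.4, *Cacna1c* at 14.7 and *Cacnb2* at 10.2 CPM per kb. Below them the order differed. *Cacna1s* at 1.49 and *Cacna1h* at 1.085 CPM per kb overlapped, and *Cacna1h* stood above *Cacna1g* at 0.6675 CPM per kb without overlap, whereas at high *Vdac2* *Cacna1g* stood above *Cacna1h* without overlap. *Cacna1g* overlapped *Cacng7* (0.486), *Cacng7* overlapped *Cacng6* (0.480), and *Cacng6* overlapped *Cacna1d* (0.255). *Cacna2d2* was last at 0.115 CPM per kb, without overlap with *Cacna1d*.

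**Figure D3:**
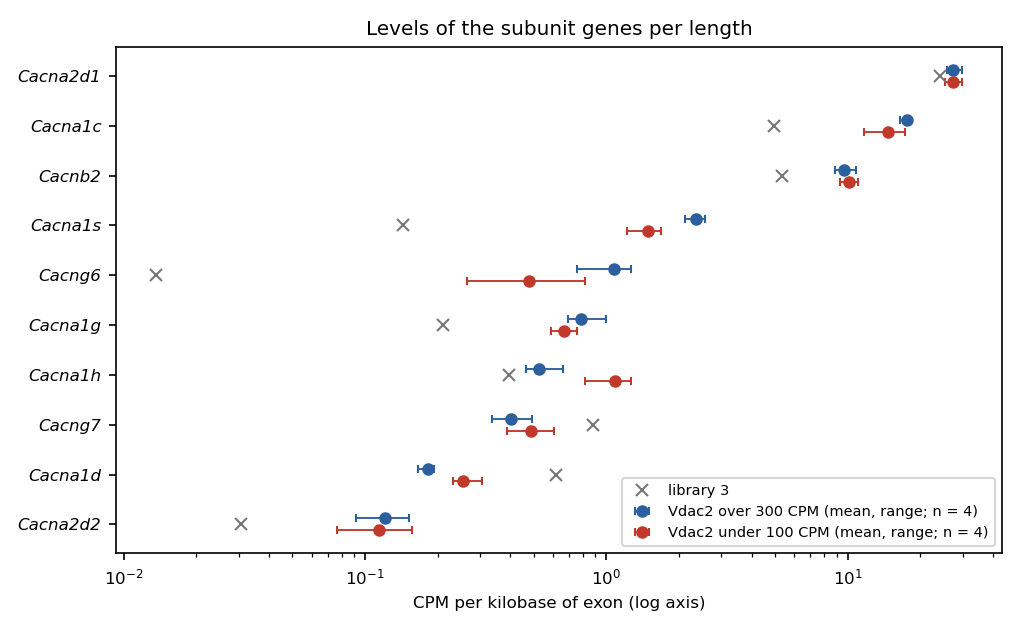
Level of each member in CPM per kilobase of exon (log axis). Circles with bars are the mean and range of 4 libraries with *Vdac2* over 300 CPM (blue) and under 100 CPM (red), and crosses are library 3; *Cacna2d1*, *Cacna1c* and *Cacnb2* lead in both sets, and *Cacna1h* passes *Cacna1g* at low *Vdac2*.

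Ratios within a library do not depend on its scaling. The ratio of *Cacna1h* to *Cacna1g* per kb was 2.145, 1.16, 1.55 and 1.76 in libraries 1, 5, 7 and 9 and 0.650, 0.668, 0.664 and 0.705 in libraries 2, 4, 6 and 8. It was thus above 1 in every library with low *Vdac2* and below 1 in every library with high *Vdac2*, with means of 1.65 ± 0.412 and 0.672 ± 0.0234 (SD, n = 4 each), a 2.46-fold difference. Library 3, at 1.88, lay within the low set for this ratio although its *Cacna1h* level did not. Between the labels a two-sided exact permutation test on the log2 ratio gave p = 0.825 (0.825 after adjustment over 3 ratios).

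*Cacna1d* was 1.76 ± 0.311% of *Cacna1c* at low *Vdac2* and 1.03 ± 0.0205% at high *Vdac2* (per kb, SD, n = 4 each), without overlap, and 12.5% in library 3. The exact two-sided permutation test between labels gave p = 0.46 (adjusted 0.69). *Cacna1s* was 10.3 ± 2.08% and 13.3 ± 1.88% of *Cacna1c*, with overlap. Library 3 was at 2.90%, and the labels gave p = 0.254 (adjusted 0.69) in the same exact test. With 5 against 4 libraries the smallest p this test can give is 0.0159.

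**Figure D4:**
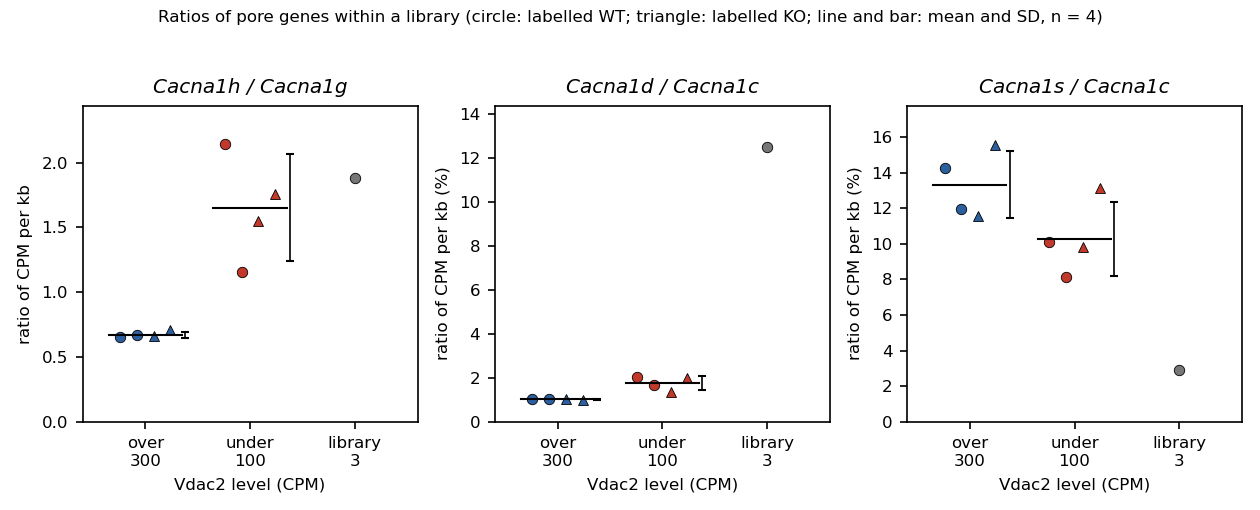
Ratios of pore gene levels per kilobase within a library (linear axes from 0; the first panel is a plain ratio, the others are percent), for *Vdac2* over 300 CPM (blue), under 100 CPM (red) and library 3 (grey). Circles are labelled WT, triangles labelled KO, and lines with bars are the mean and SD of 4 libraries; *Cacna1h* over *Cacna1g* is 0.650 to 0.705 in the high set and 1.16 to 2.145 in the low set.

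As a share of the 5 pore genes together (per kb), *Cacna1c* made up 80.6 ± 2.64% at low and 82.1 ± 1.25% at high *Vdac2* (SD, n = 4 each), and these overlapped. *Cacna1h* took 6.002 ± 1.18% and 2.45 ± 0.368%, without overlap, and *Cacna1s* 8.27 ± 1.39% and 10.9 ± 1.41%, with overlap. *Cacna1g* was at 3.68% and 3.65% and *Cacna1d* at 1.41% and 0.846%. In library 3 *Cacna1d* reached 9.81% and *Cacna1s* only 2.275% of the pore RNA, while *Cacna1c* still made up 78.4%.

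Of 16 further channel subunit genes, 6 passed the filter. These were the pore genes *Cacna1a* and *Cacna1e*, the β genes *Cacnb1*, *Cacnb3* and *Cacnb4*, and the α2δ gene *Cacna2d3*. Between the *Vdac2* sets 0 of the 6 separated without overlap, their log2 fold changes ran from -0.20 to 0.44 with a median of 0.254, and between labels 0 passed edgeR's test (0 with an unadjusted p under 0.05). *Cacnb1*, the β gene of skeletal muscle, picked after its values were seen, was at 4.115 ± 0.633 and 3.06 ± 0.414 CPM (SD, n = 4 each) at low and high *Vdac2*, far under *Cacnb2*. *Cacng3* and *Cacng5* had 0 counts in all 9 libraries, which allows up to 3 counts in each. *Cacna2d4*, *Cacng2*, *Cacng4* and *Cacng8* had at most 3 counts in any library, and *Cacna1i*, the remaining T-type pore gene, had at most 7 and was not tested.

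Of 26 genes for regulators of these channels, 23 passed the filter, with a median log2 fold change of -0.08 between the *Vdac2* sets (range -0.62 to 0.25). *Rem2*, which did not pass, had at most 1 count in any library. Of the 23, 3 were lower at low *Vdac2* without overlap and 0 higher, none by 1.5-fold. Over all genes 4.95% were lower and 7.12% higher without overlap (12.1% in either direction), and nothing is read from this count. The regulators below were named after their values were seen, with *Jph2*, *Camk2d* and *Camk2g* those without overlap. *Jph2*, which ties the sarcoplasmic reticulum to the T-tubule where L-type channels sit, was at 236 ± 28.8 against 315 ± 35.1 CPM (SD, n = 4 each), a log2 fold change of -0.42 (SE 0.0998). *Camk2d* and *Camk2g*, subunits of the calmodulin-dependent kinase that facilitates L-type current, differed by -0.19 (SE 0.0577) and -0.10 (SE 0.0575). *Rrad*, a small GTPase that restrains the channel through the β subunit, had a value of -0.32 (SE 0.107) with overlap. *Akap5*, which anchors kinases at the channel, had -0.62 (SE 0.220), also with overlap, and *Bin1*, which shapes T-tubules, had 0.25 (SE 0.0992), likewise with overlap. Between labels 0 of the 23 passed edgeR's test, and 1 had an unadjusted p under 0.05, against 997 of all 16322 genes.

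Markers of other cells of the heart were set beside the members. Over all genes 12.1% did not overlap, in either direction. The cardiomyocyte markers were lower in sum in every library with low *Vdac2*, and 1 of the 7, *Ttn*, did not overlap, with a log2 fold change of -0.17 (SE 0.0779). *Ttn* made up most of the sum, at 83150 to 93920 CPM at low and 98310 to 103700 CPM at high *Vdac2*. *Myom2* had the opposite sign, at 1927 ± 473 and 1605 ± 159 CPM (SD, n = 4 each). Among conduction and node markers, *Hcn4*, the main pacemaker channel of the node, had a log2 fold change of -0.73 (SE 0.204) with overlap, and *Tbx3*, a transcription factor of the conduction system, one of -0.11 (SE 0.169) with overlap. *Tbx18* (0.08, SE 0.104) and *Shox2* (0.27, SE 0.245) had positive log2 fold changes, also with overlap. *Isl1* and *Vsnl1* had at most 2 counts in any library.

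Of 6 atrial markers 4 were tested and *Myl4* was higher at low *Vdac2* without overlap, the sums being 6.645 to 10.8 and 6.005 to 7.79 CPM, with *Sln* at no more than 2 counts per library. Smooth muscle markers (0 of 5 without overlap) summed to 252 to 546 CPM at low and 229 to 304.5 CPM at high *Vdac2*, of which *Acta2* made up 225 to 511 and 197 to 269 CPM. *Myh11* had a log2 fold change of -0.26 (SE 0.110) and *Tagln* one of -0.15 (SE 0.0965). Macrophage markers, of which *Adgre1* and *Cd68* of 4 were higher without overlap, summed to 179 to 246 and 120.4 to 173 CPM. Fibroblast markers (1 of 5 higher) summed to 1031 to 1207 and 795 to 1061 CPM, endothelial markers (1 of 5 lower) to 476 to 618 and 583.5 to 722 CPM, and nerve markers (0 of 2 tested of 5) to 7.93 to 9.41 and 8.79 to 10.1 CPM. The part of any of these cells in the levels of *Cacna1h*, *Cacna1d* or *Cacna1s* was not tested.

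The genes whose pattern over the 9 libraries was most like that of *Cacna1h* were *Cenpf*, *Rtl3* and *Pde1c*, by the root-mean-square difference of mean-centred log2 levels (0.195, 0.221 and 0.264) among 13735 genes with a mean of at least 1 CPM. *Pde1c*, a cyclic nucleotide phosphodiesterase, was at 272, 196, 223 and 294.5 CPM at low *Vdac2*, at 136, 134, 133 and 123 CPM at high *Vdac2* and at 64.2 CPM in library 3. For *Cacng6* they were *Gm10635*, *Clcn1* and *Gm45012* (0.274, 0.298 and 0.325). *Clcn1*, the chloride channel of skeletal muscle, was at 2.755, 4.51, 5.37 and 2.05 CPM at low and at 12.1, 8.74, 11.3 and 7.94 CPM at high *Vdac2*. In library 3, where *Cacng6* had 1 count, *Clcn1* was at 0.2156 CPM, *Gm10635* at 0.1347 CPM and *Gm45012* at 0.2156 CPM. That library, the lowest for all of them, is part of the likeness. The libraries are shared by all these genes, and the likeness is a description.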

How the data were processed

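The authors prepared stranded, ribosomal RNA-depleted libraries, sequenced single-end reads and deposited raw counts per Ensembl gene, without normalization. The submitters' processing notes name STAR 2.7.2c, featureCounts 1.6.3, DESeq2 and GRCm38. The annotation release, strand setting and handling of multi-mapped reads are not given in the sources used here. All 9 columns of the deposited counts were used (27345052 to 44673988 counts per library), and 52403 of 52636 identifiers had a symbol in GENCODE M21.

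CPM values are counts over TMM-scaled totals. The labels were compared with edgeR 4.0.16 (R 4.3.3, filterByExpr, robust quasi-likelihood F-test) and Benjamini-Hochberg adjustment over 16322 genes, a call being an adjusted p under 0.05. A separate fit by the same method, on the 8 libraries of the *Vdac2* sets, gave log2 fold changes and standard errors between them. It covered 16251 genes and is given without p-values. The members, lists and rules were chosen with earlier results of these data known. All members were named. Of the other subunits and regulators, genes without overlap and at least 1.5-fold apart were to be named, besides genes at or under 3 counts. None met the first part, and those given with values were picked after their values were seen. For *Cacna1h* and *Cacng6* the 3 genes of the most similar pattern were named. Alternatives were DESeq2 1.42.0, RLE and upper-quartile scaling, other filters, each library left out, library 3 added, and label or *Vdac2* set as a term. 1 conduction marker and the sum over its list are not reported here. The scripts were tested on simulated data. No 2 libraries agreed within sampling noise (lowest chi-square per degree of freedom 6.72).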

Additional observations from a re-analysis of the deposited data

Results flagged for a closer look

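In 5 of 40 checks of groups of 4 or 5 libraries, 1 library lay further from the rest than Dixon's critical value allows, where chance gives about 1 in 20. All 5 were library 3 among the libraries labelled WT. It was the lowest of the 5 for *Cacna1c* (105 CPM), *Cacna1s* (0.943 CPM), *Cacna1g* (2.13 CPM) and *Cacnb2* (70.6 CPM), and the highest for *Cacng7* (2.16 CPM). The flags share 1 library and are not independent.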

How the results depend on the processing

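The log2 fold changes of *Cacna1h*, *Cacna1d* and *Cacna1s* between the *Vdac2* sets kept their direction under every scaling, filter, tool and left-out library, ranging without 1 library from 0.96 to 1.17, 0.39 to 0.52 and -0.71 to -0.57. In the same way *Cacng6* ran from -1.54 (without library 7) to -0.97, *Cacng7* from 0.16 (without library 7) to 0.40, *Cacnb2* from 0.03 to 0.135 and *Cacna2d2* from -0.27 to 0.04. The number of members without overlap was 3 to 5 when each library was left out, 5 without library 7 or library 8, where *Cacna1c* and *Cacng6* were added, and it was 2462 to 2913 over all genes, since fewer libraries overlap less often. With library 3 added to the low set, *Cacna1h* overlapped (0.84), *Cacna1d* was at 0.85, *Cacna1s* at -0.94, *Cacna1c* at -0.465 and *Cacna1g* at -0.45. *Cacnb2*, at 0.08 without library 3, then had the opposite sign at -0.07.

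Between the labels 9 genes passed. There were 0 with at least 10 counts in every library (875 with an unadjusted p under 0.05), 70 with DESeq2, 330 with library 3 left out and the *Vdac2* set as a term, and 5 to 62 with each library left out (62 without library 3, and 5 without library 1, library 2 or library 4). In none was a member called. Signs changed for *Cacna1c* (-0.049), *Cacna2d1* (-0.0034) and *Cacng7* (0.27) with library 3 left out and the set as a term. With each library left out, *Cacna1c* ran from -0.055 to 0.29, *Cacna2d1* from -0.011 to 0.071 and *Cacng7* from -0.16 to 0.27. The cause was not tested. The filter of 10 counts dropped *Cacna2d2* and *Cacng6* from the label comparison. Depth limits *Cacna2d2*, *Cacng6* and *Cacng7*, with 1 to 94 counts per library. No paired analysis was possible because the labels give no replicate number to more than 1 library.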
